A study of Arabidopsis thaliana with 42 samples.

Results

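The polyubiquitin genes of Arabidopsis are the 5 loci UBQ3 (AT5G03240), UBQ4 (AT5G20620), UBQ10 (AT4G05320), UBQ11 (AT4G05050) and UBQ14 (AT4G02890), chosen by their locus identifiers out of the 27655 loci in the deposited table of normalized counts. All 5 passed the filter on low values (at least 10 normalized counts in at least 3 libraries) that 20747 loci passed. The table lists 21 of its 48359 transcripts under them, of which 3 UBQ10 forms (5, 6 and 8) are listed at 0 in every library and 18 passed the same filter. Their transcripts were read by stranded mRNA sequencing in whole 10-day-old seedlings, in 14 groups of 3 libraries, 42 libraries in all, and each library came from several plants. The mutant, called upf, carries upf3-1 and upf1-5 in the Columbia-0 background, and by its labels it is impaired in NMD (nonsense-mediated decay), which removes transcripts that stop early. The wild type was Columbia-0. Seedlings of upf and of wild type were sampled before heat (0 min) and after 15, 30, 45 and 90 min at 44 °C in liquid medium in light. Other wild-type seedlings were heated for 15, 30, 45 and 90 min in that medium with CHX (cycloheximide, which blocks translation), given in the labels as 10 µg/L. The labels use CHX as an inhibitor of NMD, which depends on translation. The mutant is 1 combination of alleles, CHX had no unheated group, and no group was kept unheated past 0 min, so heat and time since 0 min cannot be told apart.

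Polyubiquitin genes encode head-to-tail repeats of ubiquitin, the small protein that cells attach to other proteins, most often as a mark for breakdown by the proteasome. The repeats are cut apart by ubiquitin proteases, so each transcript yields several ubiquitin units. Heat unfolds proteins and raises the demand for free ubiquitin, and polyubiquitin genes are known as heat-responsive in many eukaryotes. In plants several of them carry an intron in the leader, the part before the start codon, and the UBQ10 promoter and transcript are widely used as a constitutive driver and as a reference for quantitative PCR.

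Summed normalized counts per library ran between 14.7 and 30.96 M with a median of 20.31 M. In the 11 libraries whose low values let the depth be read, the estimated number of reads was between 20.39 and 42.89 M. As a check of the labels, UPF1 and UPF3 transcript levels were lower in upf than in wild type, by log2 changes of -1.86 (SE 0.09, limma adjusted p = 5.77e-19) and -1.89 (SE 0.06, limma adjusted p = 4.57e-23) averaged over the 5 times. Among the 4 root markers and 4 shoot markers, none was at 0 in a group. At 90 min the 4 root markers had all fallen in both genotypes (median log2 change -1.74 in upf and -1.58 in wild type), and their summed level in wild type was 8376 to 10203 at 90 min, against 36634 to 47427 at 0 min. With CHX the sum at 90 min was 7215 to 8696, against 8376 to 10203 with heat alone, and at 30 min it was 32082.5 to 39531 with CHX, against 14569 to 22668 with heat alone. In upf the sum was 23314.5 to 29159 at 15 min, against 36850 to 43970.5 in wild type, and 5145.5 to 6491.5 at 90 min, against 8376 to 10203 in wild type. PYK10 made up most of the wild-type sum at 0 min (mean 33447), and the root marker SHR did not always follow the sum. At 90 min SHR had a mean of 149.7 with CHX, against 80.5 with heat alone. At 15 min it had 152.3 in upf, against 136.8 in wild type. At 30 min SHR was higher with CHX, as the sum was (157.8 against 62.5). None of the shoot markers was called by limma (their medians were 0.15 in upf and 0.33 in wild type, and 0 in upf and 2 in wild type had an unadjusted p under 0.05), and the part of root RNA in the results below was not tested. Of all 20747 genes tested at 90 min, 4173 were called lower and 2274 higher in upf. In wild type 4890 (23.6%) were called lower and 2523 (12.2%) higher. Whole seedlings were sequenced, so fewer cells of a type and less RNA per cell cannot be told apart.

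The gene models explain which transcripts carry the results. Each repeat unit has 228 bases, and the longest annotated coding sequences hold 6 units in UBQ10, 5 in UBQ4, 4 in UBQ3 and in UBQ14 and 3 in UBQ11. The main forms of all 5 genes have 1 intron, and it lies in the leader. The intron of UBQ3, UBQ4, UBQ11 and UBQ14 ends at the base before the start codon. Because the reads of the spliced and unspliced forms are told apart by these sites, the 30 bases around each are shown on the transcribed strand (RefSeq, TAIR10.1), with the first and last 2 bases of the intron in capitals.
UBQ14 intron start, chr4:1279942-1279971 (minus strand): cgggatcaagGTaaatttctgggttcttat
UBQ14 intron end, chr4:1279655-1279684 (minus strand): cagttttttgtgaattacAGatgcagatct
UBQ11 intron start, chr4:2589275-2589304 (minus strand): cgtgatcaagGTagatttctgagttcttat
UBQ11 intron end, chr4:2588951-2588980 (minus strand): tcggtttttctgattaacAGatgcagatct
UBQ3 intron start, chr5:773252-773281 (minus strand): ctctttcaagGTatattttctgattctttt
UBQ3 intron end, chr5:772887-772916 (minus strand): gttctattgttttatttcAGatgcaaatct
UBQ4 intron start, chr5:6974829-6974858 (minus strand): ctctttcaagGTacctgtttctcttattgt
UBQ4 intron end, chr5:6974454-6974483 (minus strand): cttgctctcttccttcgcAGatgcaaattt
The intron is 297 bases long in UBQ14, 334 in UBQ11, 375 in UBQ3 and 385 in UBQ4. UBQ10, on the plus strand, has 3 annotated versions of it, 304 bases in forms 1 and 2, 310 bases in form 3 and 297 bases in form 4, shown because most UBQ10 values were assigned to forms that differ at these sites.
UBQ10 forms 1, 2 and 3 intron start, chr4:2718245-2718274 (plus strand): cgtgatcaagGTaaatttctgtgttcctta
UBQ10 forms 1 and 2 intron end, chr4:2718539-2718568 (plus strand): tgagtttttctgattaacAGatgcagatct
UBQ10 form 3 intron end, chr4:2718545-2718574 (plus strand): tttctgattaacagatgcAGatctttgtta
UBQ10 form 4 intron start, chr4:2718236-2718265 (plus strand): tctctctaccGTgatcaaggtaaatttctg
UBQ10 form 4 intron end, chr4:2718523-2718552 (plus strand): aatttgtcgattaatctgAGtttttctgat
The end used by form 3 lies 6 bases further on and takes the first start codon with it, so its annotated coding sequence holds 5 units.

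Repeats of one family resemble each other, which limits how reads can be assigned. The closest pair of units between genes is the first unit of UBQ10 and the first unit of UBQ14, which have 97.37% of their 228 bases in common and a longest identical run of 65 bases. They are shown with their 6 differing bases in capitals.
UBQ10 unit 1, chr4:2718559-2718786 (plus strand): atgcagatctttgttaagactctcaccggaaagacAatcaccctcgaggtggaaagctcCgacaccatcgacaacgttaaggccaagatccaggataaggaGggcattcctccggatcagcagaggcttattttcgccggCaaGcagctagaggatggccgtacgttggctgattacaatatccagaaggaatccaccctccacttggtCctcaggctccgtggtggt
UBQ14 unit 1, chr4:1279437-1279664 (minus strand): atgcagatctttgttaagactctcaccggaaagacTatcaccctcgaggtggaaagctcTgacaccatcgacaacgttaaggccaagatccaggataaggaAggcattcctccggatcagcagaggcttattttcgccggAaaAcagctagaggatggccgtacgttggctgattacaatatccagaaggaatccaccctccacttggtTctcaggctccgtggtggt
Of the stretches of 31 bases in the main UBQ14 form, 16.3% also occur in UBQ10, 10.3% in UBQ11 and 12.1% in AT4G02880, the gene on the opposite strand. The main UBQ10 form shares 13.8% of its stretches with UBQ14 and 10.8% with UBQ11, and the main UBQ11 form shares 15.4% with UBQ10 and 12.6% with UBQ14. UBQ3 and UBQ4 share stretches mainly with each other, 7.52% of those in UBQ3 and 7.38% of those in UBQ4. Gene totals, the sum of a gene's forms, had a median coefficient of variation within groups between 6.59% (UBQ4) and 13.3% (UBQ10), whereas the UBQ10 forms 1 and 2 had medians of 47.8% and 51.4%. Splits between the forms of 1 gene and between near-identical genes are therefore uncertain, and the gene totals are described first. The labels give a stranded library but not the strand setting of the counting, so UBQ14 and AT4G02880 reads may not have been separated fully.

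Divided by transcript length, the order of levels in unheated wild type was UBQ10, UBQ11, UBQ3, UBQ14 and UBQ4. With k standing for 1000 normalized counts, UBQ10 had 26.2 k per kb (range over the 3 libraries 25.2 to 27.1), UBQ11 6.98 k (6.70 to 7.16), UBQ3 4.73 k (3.87 to 5.73), UBQ14 4.44 k (4.27 to 4.54) and UBQ4 0.623 k (0.589 to 0.686). The libraries of UBQ3 and UBQ14 overlapped, and the other neighbours in this order did not. After 90 min the order in wild type was UBQ10 (66.6 k per kb), UBQ11 (26.5 k), UBQ14 (9.16 k), UBQ3 (5.75 k) and UBQ4 (0.863 k), with no overlap between neighbours. The same order with no overlap held in upf at 90 min, where UBQ14 had 8.69 to 11.9 k per kb and UBQ3 3.04 to 3.83 k. With CHX at 90 min UBQ14 (4.56 to 7.81 k per kb) and UBQ3 (4.10 to 5.73 k) overlapped. Among the 27655 loci ranked per kb, UBQ10 ranked 37th in unheated wild type and 37th at 90 min, UBQ11 143rd and 101st, and UBQ14 248th and 249th.

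UBQ10, the most abundant member, was lower at 15 min of heat than before it and then rose to more than 2 times its starting level by 45 min in both genotypes. In upf it had 48.5, 39.8 and 48.0 k normalized counts at 0 min, 32.1, 29.9 and 37.1 k at 15 min, 82.4, 76.5 and 106 k at 30 min, 99.9, 109 and 93.9 k at 45 min and 120, 94.9 and 89.2 k at 90 min. In wild type it had 41.1, 43.1 and 44.8 k at 0 min, 25.2, 34.2 and 29.2 k at 15 min, 63.3, 59.3 and 65.6 k at 30 min, 88.7, 90.4 and 119 k at 45 min and 88.4, 113 and 121 k at 90 min. Every library at 15 min was below every library at 0 min of its genotype, and every library from 30 min on was above them. At 90 min the log2 change from 0 min was 1.15 in upf (SE 0.19, limma adjusted p = 4.43e-06) and 1.31 in wild type (SE 0.19, limma adjusted p = 4.11e-07). At 15 min it was -0.46 in upf (limma adjusted p = 0.078) and -0.55 in wild type (limma adjusted p = 0.027), short of the 2-fold change that a call also needs. The step from 15 to 30 min passed in both, with log2 changes of 1.41 in upf (limma adjusted p = 7.27e-07, 3.88% of all genes called higher) and 1.1 in wild type (limma adjusted p = 3.33e-05, 4.64% of all genes). In wild type the call of that step ended without the first library at 15 min (0.99) and with equal totals (0.72).

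UBQ11 was the member that was higher already at 15 min, when the other 4 were lower. In upf its libraries had 8.21, 7.05 and 8.11 k normalized counts at 0 min, 17.4, 11.7 and 15.1 k at 15 min, 21.5, 18.7 and 29.8 k at 30 min, 25.6, 21.9 and 23.4 k at 45 min and 27.7, 23.6 and 22.3 k at 90 min. In wild type they had 7.38, 7.78 and 7.90 k at 0 min, 14.8, 16.0 and 14.7 k at 15 min, 20.7, 17.5 and 18.8 k at 30 min, 23.8, 22.7 and 33.4 k at 45 min and 24.1, 30.2 and 33.3 k at 90 min. All heated libraries were above all unheated libraries of their genotype. The log2 change from 0 min at 15 min was 0.91 in upf (SE 0.18, limma adjusted p = 0.00012) and 0.98 in wild type (SE 0.18, limma adjusted p = 3.68e-05), just under the 2-fold limit. With the deposited scaling the change passed at each later time and was 1.65 in upf (limma adjusted p = 6.87e-10) and 1.91 in wild type (limma adjusted p = 1.94e-11) at 90 min. With equal totals the calls ended in wild type at 30 min (0.77) and in upf at 45 min (0.94) and 90 min (0.99). At 15 min 0 of the 5 members were called in wild type, where 14.2% of all genes were called, although all 5 had an unadjusted and an adjusted p under 0.05 in the limma fit. UBQ11 was called in wild type at 15 min (1.01) when libraries were scaled by the median of ratios, and in upf without the second library at 15 min (1.06).

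UBQ14 had lower values at 15 min and higher ones at 45 and 90 min than at 0 min. Against 0 min it was called at 90 min alone. Its upf libraries had 7.33, 5.52 and 6.70 k normalized counts at 0 min, 4.41, 3.42 and 4.56 k at 15 min, 7.78, 7.44 and 9.87 k at 30 min, 12.3, 11.4 and 12.1 k at 45 min and 16.4, 13.4 and 12.1 k at 90 min. Its wild-type libraries had 6.04, 6.08 and 5.73 k at 0 min, 4.16, 4.24 and 3.92 k at 15 min, 6.21, 5.34 and 5.83 k at 30 min, 9.53, 9.91 and 12.6 k at 45 min and 11.9, 12.7 and 13.1 k at 90 min. The heated libraries at 45 and 90 min did not overlap those at 0 min in either genotype. UBQ14 rose at 90 min by a log2 change of 1.1 in upf (SE 0.18, limma adjusted p = 3.17e-06) and 1.08 in wild type (SE 0.18, limma adjusted p = 3.62e-06). In upf the call ended without the second library at 0 min or without the first at 90 min, each with a log2 change of 0.98. The step from 15 to 30 min was also called for UBQ14 in upf (3.88% of all genes were called higher). That call ended with equal totals (0.66). It also ended without the second library at 15 min (0.889) or the third at 30 min (0.893). The UBQ14 total at these times includes form 3, which keeps the leader intron and is described further on. In the authors' deposited values the main spliced form 4 alone changed at 90 min by a log2 of 0.48 in upf and 0.71 in wild type. Both are short of 2-fold, so the 90 min calls hold for the summed forms and not for the main form.

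**Figure D1:**
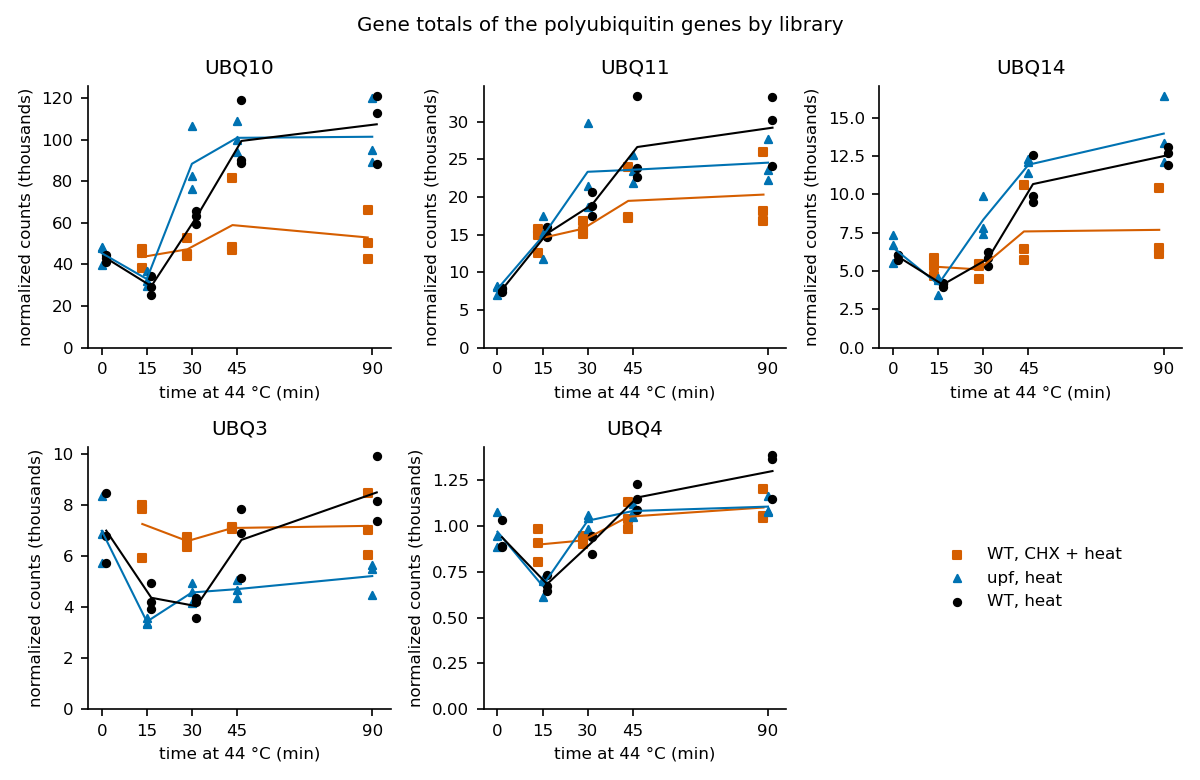
Gene totals (normalized counts in units of 1000, linear axis from 0) of the 5 polyubiquitin genes against time at 44 °C. Squares are wild-type libraries heated with CHX, triangles upf libraries, circles wild-type libraries heated alone, and lines join group means. At 90 min UBQ10 lies between 42.6 and 66.0 k with CHX, between 89.2 and 120 k in upf and between 88.4 and 121 k in wild type.

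UBQ3 and UBQ4, the pair on chromosome 5, did not rise by 2-fold at any time. In upf UBQ3 had 8.38, 5.75 and 6.87 k normalized counts at 0 min, 3.36, 3.37 and 3.58 k at 15 min, 4.16, 4.61 and 4.96 k at 30 min, 4.67, 5.08 and 4.37 k at 45 min and 5.50, 4.50 and 5.67 k at 90 min. In wild type UBQ3 had 6.81, 5.73 and 8.48 k at 0 min, 3.94, 4.95 and 4.22 k at 15 min, 4.38, 3.56 and 4.19 k at 30 min, 5.17, 6.90 and 7.87 k at 45 min and 7.40, 8.18 and 9.94 k at 90 min. All upf libraries from 15 to 90 min were below all upf libraries at 0 min, whereas wild type was below its start at 15 and 30 min and overlapped it at 45 and 90 min. UBQ3 fell in upf at 15 min by 1.01 on the log2 scale (SE 0.16, limma adjusted p = 3.77e-06), a call that ended in 3 of the fits without 1 library (-0.87 to -0.997) and with libraries scaled by the median of ratios (-0.96). With equal totals it held, and UBQ3 was then also called lower in upf at 30, 45 and 90 min (-1.15, -1.22 and -1.07) and in wild type at 30 min (-1.31). The wild-type change at 15 min was -0.67 (limma adjusted p = 0.00108). At 90 min the log2 change was -0.41 in upf (limma adjusted p = 0.024) and 0.29 in wild type (limma adjusted p = 0.106), and the wild-type sign turned, to -0.49, when libraries were scaled to equal totals.

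UBQ4, the least abundant member, moved little. In wild type it had 887.5, 893 and 1034.5 normalized counts at 0 min, 672, 729.5 and 647 at 15 min, and 1146.5, 1389.5 and 1363.5 at 90 min. The 15 min libraries were all below and the 90 min libraries all above those at 0 min. Its log2 change at 15 min was -0.52 in upf (limma adjusted p = 4.28e-05) and -0.46 in wild type (limma adjusted p = 0.00025), and at 90 min it was 0.19 in upf (limma adjusted p = 0.076) and 0.47 in wild type (limma adjusted p = 6.39e-05). The 90 min values turned to -0.47 in upf and -0.31 in wild type with equal totals, and none of these passed the 2-fold limit.

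Counted over the 5 members, the calls of heat against 0 min were as follows. In upf 1 member was called lower at 15 min (4.65% of all genes were called lower), and 1, 2 and 3 members were called higher at 30, 45 and 90 min, where 10.7%, 11.4% and 11.0% of all genes were called higher. In wild type 1, 2 and 3 members were called higher at 30, 45 and 90 min, against 11.5%, 12.7% and 12.2% of all genes. The members called at 90 min were UBQ10, UBQ11 and UBQ14 in both genotypes.

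These counts depend on how libraries were scaled. The authors' scaling leaves the median gene nearly in place (log2 change -0.14 at 90 min in wild type), and scaling every library to the same total moves it to -0.91, because the summed normalized counts were 27.7 ± 1.46 M at 90 min against 16.2 ± 0.400 M at 0 min in wild type (SD, n = 3 each). With equal totals the 90 min log2 change in wild type was 1.14 for UBQ11, 0.53 for UBQ10 and 0.30 for UBQ14, so that only UBQ11 of these 3 was called. In upf it was 0.99, 0.49 and 0.44, and none of the 3 was called higher. The UBQ10 calls at 45 min ended as well (0.50 in upf and 0.45 in wild type). Scaling by the median of ratios kept 3 members called higher at 90 min in each genotype and added UBQ10 in upf at 30 min (1.03). Scaling multiplies all values of a library by 1 factor, so distances from the median of all genes are kept almost by construction. These distances therefore do not test the calls. UBQ11 stood 2.06 above that median as deposited and 2.05 above it with equal totals in wild type at 90 min. UBQ10 stood 1.45 and 1.44 above it, and UBQ14 1.22 and 1.21.

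Shares of the polyubiquitin total do not depend on the scaling of libraries. The sum of the 5 genes itself does depend on it. In wild type, with the deposited scaling, the sum was 53.9 ± 5.79 k at 15 min, against 64.6 ± 2.95 k at 0 min, and reached 159 ± 23.6 k at 90 min (SD, n = 3 each). As a share of all normalized counts it was 0.444%, 0.321%, 0.559%, 0.592% and 0.606% at 0, 15, 30, 45 and 90 min in upf, and 0.400%, 0.299%, 0.395%, 0.528% and 0.573% at the same times in wild type. This share depends on the other genes in the total. With the 100 loci of highest mean left out of the total, members kept, it was 0.549% at 0 min and 0.952% at 90 min in upf. In wild type it was then 0.509% at 0 min, 0.599% at 30 min and 0.956% at 90 min. UBQ11 made up 11.5 ± 0.387% of the sum at 0 min and 26.3 ± 3.35% at 15 min in upf, and 11.9 ± 0.309% at 0 min and 28.2 ± 1.91% at 15 min in wild type (SD, n = 3 each). UBQ3 made up 10.8 ± 1.74% at 0 min, 8.11 ± 0.120% at 15 min and 4.36 ± 0.239% at 30 min in wild type, and it was at 5.36 ± 0.356% at 90 min. UBQ10 held 66.6 ± 1.04% at 0 min, 54.7 ± 2.72% at 15 min and 67.5 ± 0.919% at 90 min in wild type. The ratio of UBQ11 to UBQ3 within a library shows the same shift on 1 scale: its log2 was -0.03 to 0.29 at 0 min and 1.80 to 2.38 at 15 min in upf, and -0.10 to 0.44 at 0 min and 1.69 to 1.91 at 15 min in wild type, with no overlap.

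**Figure D2:**
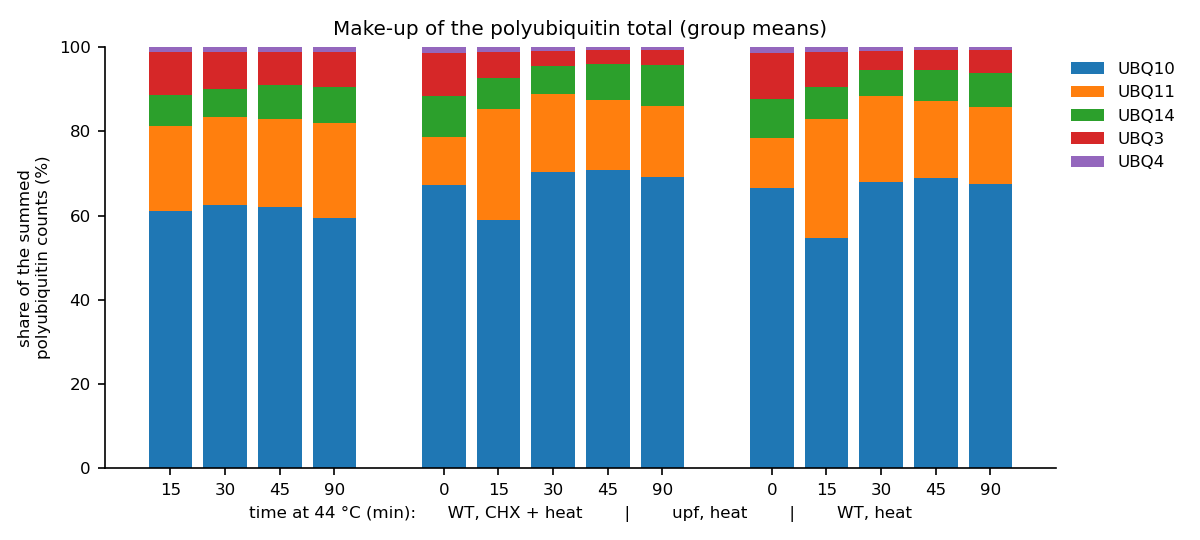
Stacked bars of each gene's share (%) of the summed polyubiquitin normalized counts, as the mean of 3 libraries per group, against time at 44 °C for wild type with CHX and heat, upf with heat and wild type with heat. The orange UBQ11 band is widest at 15 min without CHX (26.3% in upf and 28.2% in wild type) and stays between 20.2% and 22.7% with CHX.

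The comparison of upf with wild type asks whether loss of NMD factors alters these transcripts. None of the 5 gene totals was called at any of the 5 times or in their mean (limma), where 7.47%, 7.66%, 9.79%, 10.4% and 10.8% of all genes were called at 0, 15, 30, 45 and 90 min and 8.58% in the mean. The numbers of members with an unadjusted p under 0.05 were 0, 1, 2, 1 and 2 at those times and 2 in the mean. UBQ3 had the largest difference among the members: at 90 min it had 5.50, 4.50 and 5.67 k normalized counts in upf, against 7.40, 8.18 and 9.94 k in wild type, with no overlap. That difference was -0.70 (log2, SE 0.16, limma adjusted p = 0.00083), it was -0.48 at 45 min (limma adjusted p = 0.021), and the mean over times was -0.27 (SE 0.07, limma adjusted p = 0.00156). UBQ14 differed by 0.52 at 30 min (SE 0.18, limma adjusted p = 0.029), with 7.78, 7.44 and 9.87 k in upf, against 6.21, 5.34 and 5.83 k in wild type. The summed level of the 4 root markers was also lower in upf than in wild type at 90 min, with no overlap. Of these markers, PYK10 had a mean of 2709.5 in upf, against 5753 in wild type. SHR had 74.2 in upf, against 80.5 in wild type, with overlap. The part of root RNA in the UBQ3 difference was not tested. At 0 min the differences of all 5 members lay between 0.00 and 0.12. The response to heat itself, tested as the difference of the 2 genotypes' changes from 0 min, was called for 0 of 5 members at each time (limma), against 0.0627%, 1.06%, 2.21% and 2.37% of all genes at 15, 30, 45 and 90 min. UBQ3 was the only member with an unadjusted p under 0.05 in those tests, at 45 and at 90 min, and its value at 90 min was -0.70 (SE 0.22, limma adjusted p = 0.077).

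In seedlings heated with CHX, UBQ10 was above heat alone at 15 min and below it from 30 min on. It had 45.3, 38.1 and 47.4 k normalized counts at 15 min with CHX, 45.2, 44.3 and 52.5 k at 30 min, 48.4, 46.7 and 81.7 k at 45 min and 50.3, 42.6 and 66.0 k at 90 min. No CHX library overlapped the heat-alone libraries of its time. The difference from heat alone was 0.57 at 15 min (log2, SE 0.19, limma adjusted p = 0.044), -0.41 at 30 min (limma adjusted p = 0.084), -0.79 at 45 min (limma adjusted p = 0.00131) and -1.03 at 90 min (limma adjusted p = 5.05e-05). The 90 min difference is the one call among the 5 members (2.77% of all genes were called lower and 16.3% in either direction). It ended at -0.99, -0.94 and -0.89 without the second or the third heat-alone library or the second CHX library, and at -0.59 with equal totals. The third CHX library was the highest at 45 and at 90 min. Without replicate 3 of both groups, an alternative added after the data were seen, the difference of means at 90 min was -1.11.

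UBQ14 with CHX had 6.53, 6.10 and 10.4 k normalized counts at 90 min, against 11.9, 12.7 and 13.1 k with heat alone, a log2 difference of -0.75 (SE 0.18, limma adjusted p = 0.00097) with no overlap. The heat-alone totals include the form that keeps the leader intron, which was nearly absent with CHX at 90 min and is described further on. The difference and the lack of overlap therefore hold for the summed forms and not for the main spliced form alone. UBQ11 with CHX had 15.8, 12.6 and 14.9 k at 15 min, against 14.8, 16.0 and 14.7 k with heat alone, and these overlapped. At 90 min it had 18.1, 16.8 and 26.0 k with CHX, against 24.1, 30.2 and 33.3 k with heat alone, a log2 difference of -0.54 (SE 0.18, limma adjusted p = 0.0132) with the highest CHX library above the lowest heat-alone library. UBQ3 showed the opposite order early on: it had 6.34, 6.69 and 6.76 k with CHX at 30 min, against 4.38, 3.56 and 4.19 k with heat alone. Its log2 differences were 0.73 at 15 min (limma adjusted p = 0.00138) and 0.71 at 30 min (limma adjusted p = 0.00047), then 0.12 at 45 min and -0.24 at 90 min, where the groups overlapped and the 90 min sign turned with equal totals (0.19). At 30 min the summed root markers were higher with CHX as well, with no overlap, and the summed shoot markers were lower (464977.5 to 570173 with CHX, against 705033 to 763009.5 with heat alone). Their part in the UBQ3 difference was not tested. UBQ4 differed by 0.39 at 15 min (limma adjusted p = 0.00414) and by -0.24 at 90 min (limma adjusted p = 0.041), and with equal totals the 90 min value turned to 0.20.

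No member was called between CHX and heat alone at 15, 30 or 45 min (limma), where 4.73%, 15.0% and 14.6% of all genes were called, although 3, 2 and 3 members had an unadjusted p under 0.05. Against wild type at 0 min, which is a group shared with the heat-alone comparisons, UBQ11 was the one member called with CHX. Its log2 change was 0.90, 1.04, 1.32 and 1.38 at 15, 30, 45 and 90 min, called from 30 min on, where 12.5%, 12.4% and 12.4% of all genes were called higher. At 15 min 0 members were called with CHX (10.6% of all genes) and 1 had an unadjusted p under 0.05. With equal totals UBQ11 with CHX was called at 90 min alone (1.04, after 0.77 and 0.92 at 30 and 45 min), and without the third CHX library the 30 min value was 0.99, which ends that call. The other 4 members were within 0.41 log2 units of their 0 min level at every time with CHX. UBQ10 at 90 min, for instance, stood at 0.28 (limma adjusted p = 0.24) and UBQ14 at 0.33 (limma adjusted p = 0.136).

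**Figure D3:**
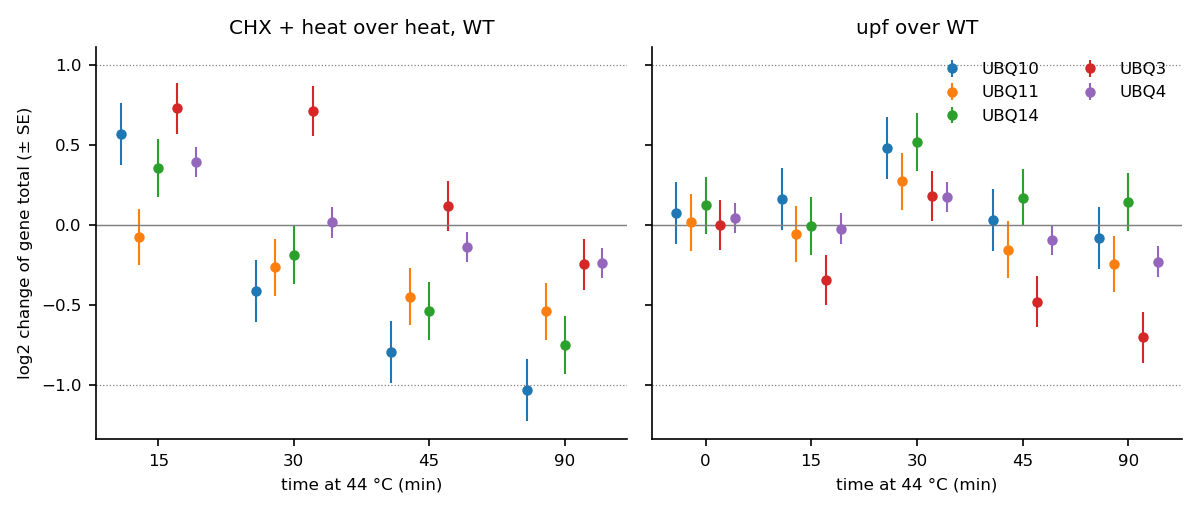
Log2 differences of gene totals with their SE from the limma fit (points and bars) for CHX with heat over heat alone in wild type, at left, and for upf over wild type, at right, against time at 44 °C. Dotted lines mark 2-fold. UBQ10 runs down to -1.03 at 90 min with CHX, the one point past a dotted line, and UBQ3 in upf reaches -0.70 at 90 min.

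The unspliced form of UBQ14, AT4G02890.3, had the highest usage change of the 18 tested forms of the 5 genes at 90 min in both genotypes. It is annotated as a single exon of 1499 bases at chr4:1278530-1280028 on the minus strand, it keeps the 297 bases between the UBQ14 sites shown above, and 323 of its 1469 stretches of 31 bases occur in no other annotated transcript. Its leader holds 1 ATG, inside the kept intron, which the main form 4 lacks. A stop codon follows it directly, 83 bases before the annotated coding start. The site is shown here in capitals because reading frames in the leader are a feature by which NMD can recognise a transcript. Such frames are not particular to this form. The main UBQ3 form has a leader frame of 13 codons that also stops in the leader. In the main UBQ10 form a leader frame of 32 codons runs past the coding start. The UBQ3 form that keeps its leader intron has leader ATGs as well, and the corresponding UBQ11 form has no leader ATG. Whether NMD acts on any of these frames was not tested.
UBQ14 form 3 leader ATG, chr4:1279732-1279761 (minus strand): gatccgatATGtgatttatattcagatctg

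In upf, form 3 had 33, 24 and 49 normalized counts at 0 min, 44.5, 23.5 and 24 at 15 min, 883, 643 and 213 at 30 min, 3677.5, 3508 and 3815.5 at 45 min and 5439.5, 4702.5 and 4457.5 at 90 min. In wild type it had 34.5, 63.5 and 59 at 0 min, 60, 35.5 and 43.5 at 15 min, 428.5, 310.5 and 492 at 30 min, 2692.5, 2993 and 1587 at 45 min and 4155.5, 2992.5 and 1693 at 90 min. Every library from 30 min on was above every library at 0 and 15 min of its genotype. Within UBQ14, its share at 90 min was 33.1%, 35.1% and 36.8% in upf and 34.9%, 23.6% and 12.9% in wild type, against 0.45%, 0.44% and 0.73% in upf and 0.57%, 1.05% and 1.03% in wild type at 0 min. The third wild-type library was the lowest at 45 and at 90 min. The main form 4 made up the remainder almost entirely, with 64.9%, 64.7% and 62.9% in upf and 64.9%, 75.9% and 86.7% in wild type at 90 min.

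With CHX, 11 of 12 libraries had at most 33.5 normalized counts of form 3. The libraries with CHX had 10, 17 and 9 normalized counts at 15 min, 12.5, 20.5 and 18 at 30 min, 18, 22 and 819 at 45 min and 20.5, 33.5 and 14.5 at 90 min. The third library at 45 min stands apart, and its share of 7.73% compares with 0.32% and 0.34% in the other 2, so the group mean is 2.79% with it and 0.329% without it. At 90 min the shares were 0.31%, 0.55% and 0.14% with CHX, against 34.9%, 23.6% and 12.9% with heat alone. UBQ10 and UBQ14 totals were also highest in the third CHX library at 45 min.

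The usage test (limma diffSplice), which compares a form's log2 change with that of the other forms of its gene over 22958 transcripts, called form 3 higher from 30 min on. Its values in upf were 3.56 at 30 min (SE 0.94, adjusted p = 0.00508), 5.64 at 45 min (adjusted p = 1.30e-06) and 6.36 at 90 min (adjusted p = 5.26e-08), where 4.84%, 6.97% and 7.21% of transcripts were called higher. In wild type the diffSplice values were 2.66 at 30 min (adjusted p = 0.041), 5.13 at 45 min (adjusted p = 9.63e-06) and 5.40 at 90 min (adjusted p = 3.17e-06), against 7.27%, 8.69% and 8.36% of transcripts called higher. The 30 min calls were the least firm, since each of the 6 fits without 1 library ended the wild-type one, with values between 2.12 and 2.96, as did a pseudocount of 0.1 (2.68), and 1 such fit ended the upf one (2.96). At 90 min, leaving out single libraries or changing the pseudocount kept the wild-type value between 4.55 and 6.07. CHX against heat alone gave diffSplice values of -2.83 at 15 min (adjusted p = 0.144), -4.09 at 30 min (adjusted p = 0.00199), -4.92 at 45 min (adjusted p = 0.00013) and -7.09 at 90 min (adjusted p = 1.39e-08), where 0.436%, 3.50%, 3.20% and 2.87% of transcripts were called lower. In the authors' deposited table the level of form 3 changed by a log2 of 7.11 at 90 min over 0 min in upf (adjusted p = 1.62e-45) and 5.81 in wild type (adjusted p = 6.23e-31), and CHX with heat against heat alone at 90 min was -7.01 (adjusted p = 2.22e-42).

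Between the genotypes, the usage of form 3 did not pass the test at any time. The diffSplice difference of upf and wild type was -0.13 in the mean over times (SE 0.42, adjusted p = 0.89) and 0.40 at 90 min (SE 0.94, adjusted p = 0.91). Among the 18 tested forms of the 5 genes, 1 was called between the genotypes at 30 min (7.20% of transcripts) and 0 at the other times or in the mean by diffSplice, where 2.09%, 3.35%, 6.05%, 6.61% and 18.1% of transcripts were called at 0, 15, 45 and 90 min and in the mean. The numbers of forms with an unadjusted p under 0.05 at those 5 were 0, 1, 2, 0 and 1. In the authors' deposited table, form 3 differed between upf and wild type at 90 min by 0.72 (adjusted p = 0.31). The shares at 90 min were nearly equal in the 3 upf libraries and spread from 12.9% to 34.9% in wild type, and at 0 and 15 min no upf library had more than 49 normalized counts. A miss of this test with 3 libraries a group does not show that the genotypes are alike.

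**Figure D4:**
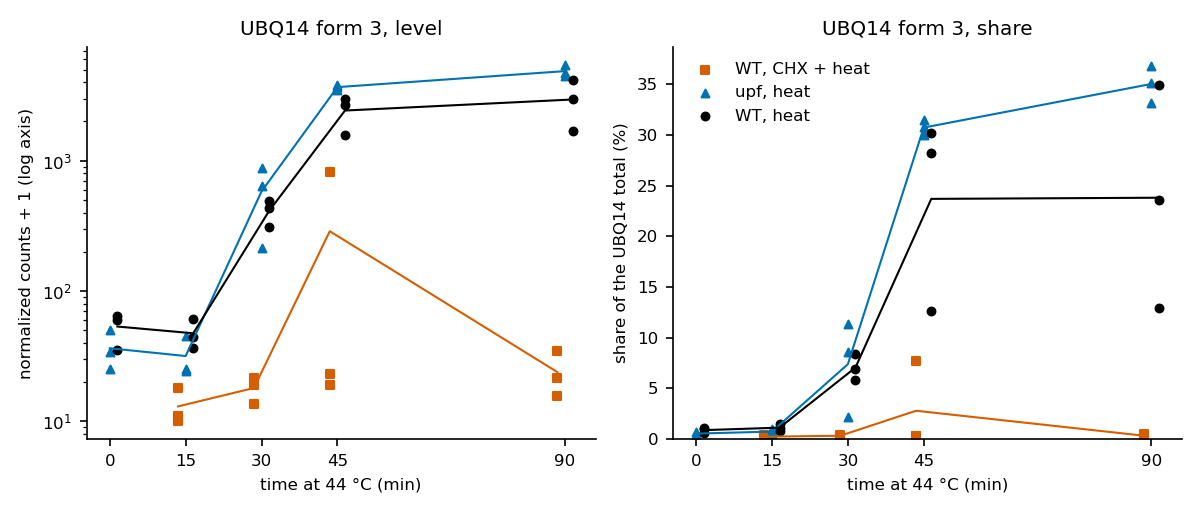
UBQ14 form 3, which keeps the leader intron, by library against time at 44 °C, as normalized counts plus 1 on a log axis (left) and as a share of the UBQ14 total in % on a linear axis (right). Squares are wild type with CHX and heat, triangles upf, circles wild type with heat alone, and lines join group means. With CHX 1 library at 45 min (819 counts, 7.73%) sits away from the other 11, which have at most 33.5 counts.

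Transcripts that keep a leader intron were also described as a class. Of 2635 such forms tested, 10.6% were called higher and 6.49% lower at 90 min in wild type, against 8.36% and 8.55% of all 22958 transcripts, and their median usage change was 0.04. The value of UBQ14 form 3 was reached or exceeded by 134 of all transcripts, itself included, 17 of them forms that keep a leader intron. In upf at 90 min 45 transcripts reached its value, and for CHX against heat alone at 90 min 5 transcripts were at or below it. For that CHX comparison 5.54% of the forms with a leader intron were called lower and 1.18% higher (median -0.53), against 2.87% and 3.10% of all transcripts.

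Corresponding forms of UBQ11 and UBQ3 were low. UBQ11 form 2, which keeps the 334-base intron shown above, had 891, 940.5 and 807 normalized counts in upf and 973, 707 and 549.5 in wild type at 90 min, against 55.5, 88.5 and 64 in upf and 87.5, 114 and 104.5 in wild type at 0 min. That was 3.21% to 3.98% of UBQ11 in upf and 1.65% to 4.04% in wild type at 90 min, and the usage change was not called in upf (1.85, SE 0.89, diffSplice adjusted p = 0.172) or in wild type (0.87, diffSplice adjusted p = 0.59). With CHX at 90 min it had 189.5, 179.5 and 170 normalized counts, 0.65% to 1.07% of UBQ11, below every heat-alone library. Its usage was called lower with CHX in the mean over 4 times (-1.21, SE 0.44, diffSplice adjusted p = 0.036), where 11.0% of transcripts were called lower, but not at any single time, and that call ended with a pseudocount of 0.1 (-1.20) and in 12 of the 24 fits without 1 library (-1.07 to -1.21). UBQ3 form 2, which keeps the 375-base intron, had 18.5, 14 and 16.5 normalized counts with CHX at 90 min, against 108, 101.5 and 50.5 with heat alone, and its usage did not pass (-1.95, SE 0.77, diffSplice adjusted p = 0.127). No annotated form of UBQ10 or UBQ4 keeps the whole leader intron.

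UBQ10 is spread over several forms in the table, and form 4, which uses the upstream intron start shown above, held more of it late in heat. Its share was 22.7%, 20.8% and 30.0% at 0 min and 51.6%, 45.0% and 44.7% at 90 min in upf, and 19.7%, 22.2% and 20.6% at 0 min and 44.2%, 39.7% and 34.6% at 90 min in wild type. With CHX at 90 min it was 29.1%, 31.1% and 37.1%, above all unheated wild-type libraries and overlapping heat alone. The usage test did not call it in upf (0.64, SE 0.80, diffSplice adjusted p = 0.71) or in wild type (1.32, SE 0.80, diffSplice adjusted p = 0.289) at 90 min. Of the 1514 stretches of 31 bases in form 4, 42 occur in no other annotated transcript, and form 3, the largest at 0 min with 57.0%, 56.3% and 53.5% in upf and 54.8%, 51.4% and 49.2% in wild type, has 26 of 1439. Form 2 has 3 such stretches of 1917, and its share was lowest in replicate 3 in 7 of the 8 heated wild-type groups with and without CHX. Its calls in upf at 30 min (usage change -2.63, diffSplice adjusted p = 0.018, 4.69% of transcripts called lower) and between upf and wild type at 30 min (-2.98, diffSplice adjusted p = 0.0078) both ended without the third upf library at 30 min, which had 69.5 normalized counts against 8393.5 and 10038.5 in the other 2. Without it the change in upf was -0.05 and the difference between the genotypes -0.40. The first call also ended without the second upf library at 0 min (-2.16), and the other one without the second wild-type library at 30 min (-2.55). UBQ10 form 7 was also called in upf (2.57 at 30 min and 2.28 at 90 min), and a pseudocount of 10 ended both calls (0.74 and 0.25). So did 2 of the 6 fits without 1 library at 30 min (1.46 and 2.09) and 4 of 6 at 90 min (1.81 to 2.43).

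The usage of UBQ14 form 1, which removes 1 whole repeat unit, was called lower at 90 min in wild type (-3.10, diffSplice adjusted p = 0.0121, 8.55% of transcripts called lower). It had 0, 60 and 25 normalized counts at 90 min against 40.5, 14 and 8.5 at 0 min, which overlap. In the authors' deposited values its level changed by a log2 of 0.44. The usage test sets form 1 against the other forms of UBQ14, among them form 3, which rose, so this call does not show a lower level. The call ended without the library listed at 0 (-1.20) and without the first library at 0 min (-2.48). UBQ11 form 3, with 0 stretches of its own, had 5165.5 normalized counts in the third upf library at 30 min and 4067 in the third wild-type library at 45 min, and at most 823.5 in any other library. In those 2 libraries UBQ10 form 2 was at its lowest of the genotype's heat-alone libraries, 69.5 and 876.5 normalized counts.

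The upstream sequences of UBQ10, UBQ11 and UBQ14, the 3 members called at 90 min, share a stretch of 17 bases that UBQ3 and UBQ4 lack. It is shown in capitals in windows of 30 bases (RefSeq, TAIR10.1).
UBQ10, chr4:2718015-2718044 (plus strand): acctaaAAATAAGGCAATTAGCCaaaaaca
UBQ11, chr4:2589515-2589544 (minus strand): acctaaAAATAAGGCAATTAGCCaaaaaca
UBQ14, chr4:1280167-1280196 (minus strand): gatcgtgtttatcAAATAAGGCAATTAGCC
Counted from the annotated start of each main form, it lies at positions -168 to -152 in UBQ10, -101 to -85 in UBQ11 and -17 to -1 in UBQ14. In UBQ10 that is inside the leader of the longer form 2. Of 25708 windows of 250 bases before a gene's start, 3 (0.0117%) hold this stretch on either strand, those of UBQ10, UBQ11 and UBQ14. It was picked as the longest stretch that these 3 windows share, so they hold it by construction and its rarity is no test. Whether it has a part in the heat calls was not tested. UBQ10 and UBQ11 share a longer stretch of 56 bases around it, chosen in the same way as the longest that their 2 windows share. It is present in their own 2 windows alone (0.00778%) and shown in capitals in the 250 bases before UBQ11.
UBQ11, chr4:2589438-2589687 (minus strand): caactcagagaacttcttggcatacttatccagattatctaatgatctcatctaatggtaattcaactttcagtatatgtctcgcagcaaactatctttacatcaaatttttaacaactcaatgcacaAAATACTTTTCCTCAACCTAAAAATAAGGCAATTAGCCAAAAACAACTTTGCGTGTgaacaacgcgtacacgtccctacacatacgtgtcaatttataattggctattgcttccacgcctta
UBQ3 and UBQ4 share at most 11 bases in a row with any of these 3 windows and 7 with each other. The heat shock element cores GAANNTTC and TTCNNGAA, searched on both strands, were in none of the 5 windows, and 9.66% and 7.80% of the 25708 windows hold them. Either core extended by 1 more alternating unit, the heat shock element of 3 units, was in none of the 5 and in 0.401% of all windows. These matches describe letters in fixed windows and say nothing of the factors that bind there.

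Across the 14 group means of log2 gene totals, the members paired off unevenly. UBQ10 and UBQ14 had a Pearson r of 0.94, UBQ4 had 0.88 with UBQ14 and 0.85 with UBQ10, UBQ10 had 0.73 with UBQ11, and UBQ3 had -0.08 with UBQ11. The genes closest to UBQ11 in pattern were VPS46.2 (r = 0.99), AT4G19200 (0.99) and GEK1 (0.99). ZFP5 (r = 0.95), APG8A (0.95) and AT1G79160 (0.95) were closest to UBQ10, and AT5G11980 (0.95), CUL2 (0.93) and AT5G48020 (0.92) to UBQ14. AT4G37700 (0.96), AT4G01395 (0.91) and AT1G01500 (0.91) were closest to UBQ3, and AT1G68620 (0.93), AT5G41761 (0.92) and AT1G67930 (0.91) to UBQ4. These r values rank genes over 14 means that share libraries and scaling, and carry no test.

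The rest of the ubiquitin system was described with 10 lists of 70 genes, 65 of which passed the filter. At 90 min in wild type 10 of the 65 rose and 0 fell, against 12.2% and 23.6% of all genes, and the median log2 change of the 65 was 0.68 (-0.14 over all genes). With equal totals, when 66 passed the filter, 5 rose and 3 fell, with a median of -0.10 (-0.91 over all genes). Among ubiquitin-conjugating enzymes (E2), which carry activated ubiquitin to the ligases, 4 of 11 rose, and UBC11 was one with 1753 ± 167 normalized counts at 90 min against 334 ± 24.0 at 0 min (SD, n = 3 each; log2 change 2.39, limma adjusted p = 8.23e-16). UBC2 rose by 1.64 (limma adjusted p = 2.93e-16). Among ubiquitin ligases (E3) 3 of 6 rose, including PUB23 with 2613 ± 144 normalized counts at 90 min against 149.7 ± 27.3 at 0 min (log2 change 4.13, limma adjusted p = 2.39e-22) and PUB22 (3.37). In the regulatory particle of the proteasome 1 of 13 rose, RPN6, a lid subunit (2.20, limma adjusted p = 1.62e-16). CDC48A, an ATPase that extracts ubiquitylated proteins (1.61), and NAC78, a transcription factor of proteasome genes (2.64), were the 2 of 3 that rose in their list. In the proteasome core 0 of 14 passed (median 0.67), and 0 of 8 deubiquitinating enzymes (0.56), 0 of 2 activating enzymes (0.53), 0 of 4 ubiquitin extension genes, which encode ubiquitin fused to a ribosomal protein (0.70), 0 of 2 ubiquitin-like genes (0.72) and 0 of 2 SUMO genes (0.75) passed. In the same limma fit 13 of the 14 core genes, 7 of the 8 deubiquitinating enzymes, 1 of the 2 activating enzymes, 3 of the 4 extension genes, both ubiquitin-like genes and both SUMO genes had an unadjusted p under 0.05, with changes short of 2-fold. The median of the 5 polyubiquitin genes was 1.08.

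With CHX and heat against heat alone at 90 min, 4 of the 65 were lower and 2 were higher, against 2.77% and 13.5% of all genes, and their median was -0.33 (0.08 over all genes). All 4 lower ones were E2 genes, UBC2 (-1.003, limma adjusted p = 6.17e-10) and UBC11 (-1.07, limma adjusted p = 5.12e-07) among them, and none of the 4 passed with equal totals, when 4 genes of the lists were called higher. The 2 higher ones were the ligases PUB22 (1.47, limma adjusted p = 2.49e-08) and PUB23, which had 8014 ± 190.4 normalized counts with CHX against 2613 ± 144 with heat alone (SD, n = 3 each; 1.62, limma adjusted p = 1.95e-10). RPN6 (-0.88), CDC48A (-0.93) and NAC78 (-0.62) had values below 0 with adjusted p under 0.05 and were short of 2-fold, as was UBQ14 (-0.75).

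**Figure D5:**
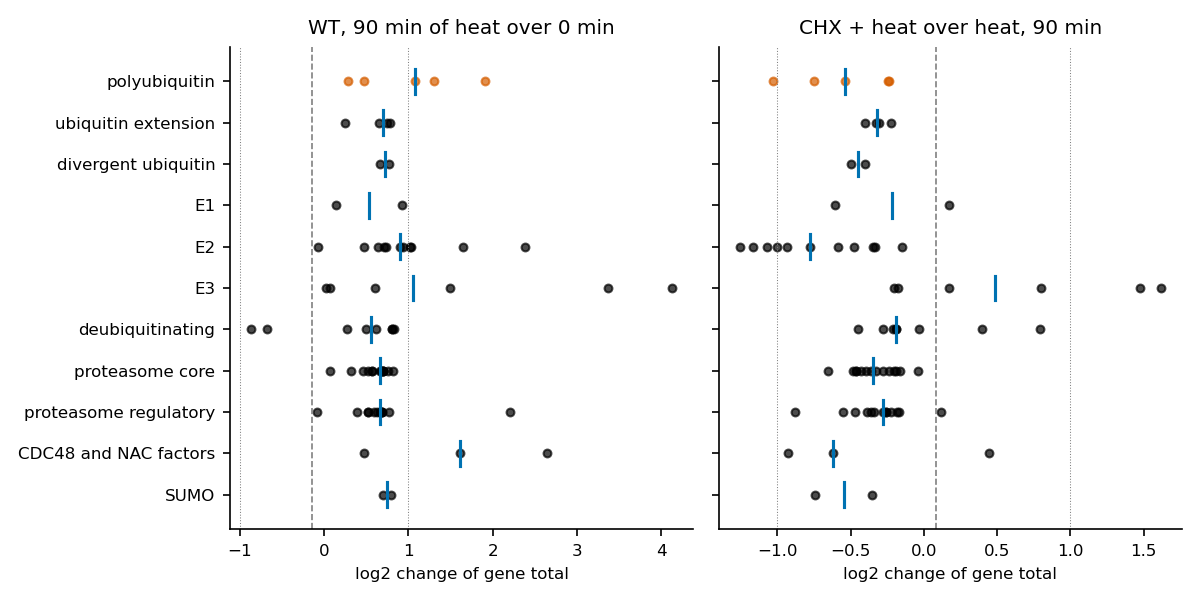
Log2 change of the gene total for each tested gene of the polyubiquitin family (orange) and of 10 lists of the ubiquitin system (black), at 90 min of heat over 0 min in wild type (left) and with CHX and heat over heat alone at 90 min (right). Blue bars are list medians, the dashed line is the median of all genes (-0.14 and 0.08), and dotted lines mark 2-fold. The polyubiquitin median is 1.08 at left, and 4 E2 genes lie below -1 at right, where UBQ10 is at -1.03.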

How the data were processed

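Messenger RNA of 42 seedling libraries was sequenced on 2 lanes each, per the labels and the file headers. The authors deposited normalized counts per transcript and lane, rounded to whole numbers, which were treated as a score and not as raw counts. kallisto, sleuth and TAIR10 are named in the submitters' processing notes, with versions, roles and scaling not given in the sources used here. For each transcript the authors also deposited log2 fold changes with p-values.

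Both lanes of each library were averaged, then the forms of a locus summed. Of the 48359 transcripts, 99.56% matched the TAIR10.1 reference. Loci with at least 10 normalized counts in at least 3 libraries (20747) were tested with limma 3.58.1 (R 4.3.3) on log2(value + 1), with a variance trend, all 14 groups in 1 fit and Benjamini-Hochberg adjustment in each of 36 comparisons. A log2 change is therefore on that scale and understates the change of low values. A call needed an adjusted p under 0.05 and a 2-fold change. Transcript usage was tested with limma diffSplice on 22958 transcripts, with a call at an adjusted p under 0.05 alone. The scripts were tested on simulated data. Values per kb divide each form by its own annotated length before the forms are summed. Figures were drawn with matplotlib 3.10.9 in Python 3.11.15, and tables were made with pandas 2.3.3.

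The named genes were the 5 members, the 2 called genes of each list with the largest change at 90 min of heat in wild type, the 3 genes closest in pattern to each member, and UPF1 and UPF3. Forms beyond these, and the libraries singled out for them, were named after their values were seen. The members and lists were chosen with earlier results of these data known. Of 85 list symbols, 80 were found at their locus in the reference, and the other 5 are not named with values. Sequencing depth limits the precision of low forms most. Summed normalized counts, 14.7 to 30.96 M per library, depend on the scaling and do not measure depth. The second upf library at 90 min, for instance, had a sum of 24.43 M and the fewest estimated reads, 20.39 M. The sampling error of single values cannot be computed from normalized counts. Alternatives were another pseudocount, no filter, single lanes, no variance trend, only the groups compared, scaling to equal totals and by the median of ratios, a replicate block and fits without single libraries. For the family share, the total was also taken without the 100 loci of highest mean. The fits without replicate 3 in 2 CHX results were added after the data were seen.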

Additional observations from a re-analysis of the deposited data

Results flagged for a closer look

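In these results every library at 15 min lay on one side of its comparison group's mean and every library at 90 min on the other side, and the difference between the times was not tested. With CHX and heat over heat alone, the log2 differences at 15 and 90 min were 0.73 and -0.24 for UBQ3, 0.39 and -0.24 for UBQ4, 0.57 and -1.03 for UBQ10 and 0.36 and -0.75 for UBQ14. For heat over 0 min in upf, they were -0.52 and 0.19 for UBQ4, -0.46 and 1.15 for UBQ10 and -0.66 and 1.1 for UBQ14. For heat over 0 min in wild type, they were -0.67 and 0.29 for UBQ3, -0.46 and 0.47 for UBQ4, -0.55 and 1.31 for UBQ10 and -0.53 and 1.08 for UBQ14. The times of one genotype share their 0 min libraries.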

How the results depend on the processing

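Over the 5 gene totals and 36 comparisons, all 180 values kept their direction and side of the threshold with another pseudocount, no filter, either lane, no variance trend, only the groups compared, or the replicate block. Scaling by the median of ratios turned no called value, added calls for UBQ11 in wild type at 15 min (1.01) and UBQ10 in upf at 30 min (1.03), and ended that of UBQ3 in upf at 15 min (-0.96). The lists then had 13 higher genes at 90 min in wild type, against 10, and 6 lower with CHX, against 4. Scaling to equal totals changed the most. It left 1 member called higher at 90 min in wild type and 0 in upf, against 3 each as deposited, called 1 member lower (UBQ3) at 30, 45 and 90 min in upf and at 30 min in wild type, against 0, and 0 lower with CHX at 90 min, against 1. The ubiquitin-system lists then had 5 higher and 3 lower genes at 90 min in wild type, against 10 and 0, and 4 higher and 0 lower with CHX, against 2 and 4. Signs turned for UBQ4 in wild type at 45 min (-0.45) and 90 min (-0.31), in upf at 30 min (-0.46), 45 min (-0.49) and 90 min (-0.47), with CHX over 0 min at 45 min (-0.24) and 90 min (-0.11) and with CHX over heat alone at 90 min (0.20). They also turned for UBQ3 in wild type at 90 min (-0.49) and with CHX over 0 min at 45 min (-0.37), and for UBQ14 in the CHX mean (0.0061). The cause was not tested.

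Without single libraries, 1394 gene values stayed on their side of the threshold, 12 lost a call and 4 gained one. The number of members called lower with CHX at 90 min was 0 to 1 in those fits. Gained calls included UBQ10 with CHX at 45 min (-1.05 without the third CHX library). Among usage values 149 kept their call without 1 library and 49 lost it. Same-numbered libraries correlated above 0.1 in every pair in 3 of 30 comparisons, CHX over heat alone at 30 min (0.127 to 0.307) and the CHX steps at 45 min over 30 min and 90 min over 45 min, and did not in the other 27. A shared replicate effect in those 3 is therefore possible. The replicate block changed no call of a gene total in any comparison and left UBQ11 at 90 min in wild type at 1.91. Sequencing depth limits the low forms most.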
